A study of Homo sapiens with 6 samples.

Results

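The hypoxia target genes and glycolysis enzymes are a list of 39 genes: 5 HIF factors and oxygen sensors, 13 target genes of the hypoxia-inducible factors (HIF), 4 glucose and lactate transporters and 17 enzymes of glycolysis. They were chosen by name, with earlier results of these data known. Each gene was read from 1 probe set, the brightest on average of those annotated to that gene alone. Of the 39, 36 were measured, among 19775 genes in all. CA9, SLC16A1 and SLC16A3 had no such probe set in the annotation used and were not analysed here.

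The first group was DLD1 cells exposed to 10 µM SAH-BCL9B and the second was DLD1 cells exposed to the DMSO vehicle, both for 12 h, with 3 arrays each from cultures the labels describe as triplicate. SAH-BCL9B is a stapled peptide modelled on the helix through which BCL9 binds beta-catenin, and DLD1 is an established human colorectal adenocarcinoma line with a truncated APC protein. Values are log2 expression levels. All arrays came from 1 line, 1 dose and 1 time, no control peptide was among them, and the oxygen level of the cultures is not given in the sources used here. Nothing states that the cultures were set up independently, so the p-values measure the spread between these arrays.

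HIF is a transcription factor made of an oxygen-labile alpha subunit and a stable partner. When oxygen is present, prolyl hydroxylases mark the alpha subunit, the VHL protein recognises the mark, and a ubiquitin ligase sends the subunit for destruction. In hypoxia the subunit persists and activates genes of glucose uptake, glycolysis, lactate export, collagen modification and vessel tone. The alpha subunit is controlled mostly as a protein, so the transcript level of HIF1A does not measure HIF activity. Carcinoma lines commonly run glycolysis at a high rate in the presence of oxygen as well.

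Promoters are shown for the 4 members that passed the test, and for PGK1 and LDHA, classical HIF-bound enzyme genes that did not pass. HIF is known to bind the core letters ACGTG and GCGTG. Each window is the RefSeq reference sequence (GRCh38.p14) from 250 bases before to 50 bases after a gene start, 5′ to 3′ on the strand of the gene, with every ACGTG and GCGTG on either strand in capitals. The windows lie at chr11:10304823-10305122 on the plus strand for ADM, chr5:132227042-132227341 on the minus strand for P4HA2 and chr4:185396591-185396890 on the plus strand for ANKRD37. Those of SLC2A1, PGK1 and LDHA lie at chr1:42958819-42959118 on the minus strand, chrX:78103998-78104297 on the plus strand and chr11:18394313-18394612 on the plus strand.
ADM: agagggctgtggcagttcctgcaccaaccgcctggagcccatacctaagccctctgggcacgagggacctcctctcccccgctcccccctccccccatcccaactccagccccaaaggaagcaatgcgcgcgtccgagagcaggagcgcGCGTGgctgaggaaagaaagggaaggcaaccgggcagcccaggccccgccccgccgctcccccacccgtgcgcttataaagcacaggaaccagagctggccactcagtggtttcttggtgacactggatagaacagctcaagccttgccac
P4HA2: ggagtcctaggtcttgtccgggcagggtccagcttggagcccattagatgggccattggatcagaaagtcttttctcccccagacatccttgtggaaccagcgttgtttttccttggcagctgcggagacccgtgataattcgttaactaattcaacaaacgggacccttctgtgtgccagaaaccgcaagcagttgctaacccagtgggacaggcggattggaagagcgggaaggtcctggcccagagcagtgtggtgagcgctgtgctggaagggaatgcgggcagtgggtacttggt
ANKRD37: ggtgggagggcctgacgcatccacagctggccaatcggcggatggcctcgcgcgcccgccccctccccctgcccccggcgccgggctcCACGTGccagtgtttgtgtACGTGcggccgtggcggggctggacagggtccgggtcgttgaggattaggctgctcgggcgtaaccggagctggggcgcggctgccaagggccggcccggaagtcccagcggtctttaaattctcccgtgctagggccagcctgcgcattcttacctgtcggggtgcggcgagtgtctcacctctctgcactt
SLC2A1: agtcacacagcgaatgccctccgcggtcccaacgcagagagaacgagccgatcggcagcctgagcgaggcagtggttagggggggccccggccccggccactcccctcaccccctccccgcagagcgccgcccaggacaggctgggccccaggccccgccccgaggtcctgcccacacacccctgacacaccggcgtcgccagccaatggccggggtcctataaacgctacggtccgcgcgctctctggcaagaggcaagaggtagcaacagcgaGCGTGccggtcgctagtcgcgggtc
PGK1: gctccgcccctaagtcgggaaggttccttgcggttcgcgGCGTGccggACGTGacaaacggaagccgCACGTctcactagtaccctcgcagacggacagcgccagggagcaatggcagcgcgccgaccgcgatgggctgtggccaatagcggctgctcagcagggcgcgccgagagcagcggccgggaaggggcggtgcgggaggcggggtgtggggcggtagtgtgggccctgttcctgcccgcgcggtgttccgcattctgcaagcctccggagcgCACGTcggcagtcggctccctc
LDHA: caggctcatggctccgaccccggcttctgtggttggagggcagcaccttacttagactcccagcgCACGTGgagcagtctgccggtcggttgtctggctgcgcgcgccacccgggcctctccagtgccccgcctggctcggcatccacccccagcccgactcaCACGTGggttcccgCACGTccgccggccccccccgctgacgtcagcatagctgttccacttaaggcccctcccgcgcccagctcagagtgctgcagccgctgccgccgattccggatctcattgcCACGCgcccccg
The ADM and SLC2A1 windows held 1 GCGTG each and no ACGTG, and the P4HA2 window held neither. The ANKRD37 window held 3 matches to ACGTG, of which 2 are the opposite strands of 1 CACGTG. The PGK1 window held 3 matches to ACGTG and 1 to GCGTG, and the LDHA window shown 5 and 1. LDHA has a second RefSeq window, at chr11:18396101-18396400 on the plus strand and not printed, which held no ACGTG and 1 GCGTG.

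RefSeq windows were found for 33 of the 36 measured members, 59 windows in all, since some genes have several starts. Either motif stood in 14 of 16 windows of HIF target genes (87.5%) and in 23 of 37 windows of glycolysis enzymes (62.2%), against 48.4% of all 35116 promoter windows of this length. ACGTG stood in 56.2% of the windows of target genes, 40.5% of those of enzymes and 21.4% of all. GCGTG stood in 50%, 37.8% and 36.5%. These shares count windows, not genes, and several windows of HK1, PFKM and PFKP held neither motif. Counted by gene, PGAM1 alone of the 17 enzymes had neither motif in any window. P4HA2 was the only such gene among the 11 HIF target genes with a window. This count by gene cannot compare the groups, since the share over all genes was not counted. A gene with more windows also has more chances of a match. The enzymes had 37 windows over 17 genes, and the target genes 16 over 11. These matches describe letters in a window and say nothing of binding in these cells.

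With SAH-BCL9B, 4 of the 36 measured members rose and 0 fell in limma's test (adjusted p under 0.05), against 3.49% of all genes called higher, 3.43% called lower and 6.93% called either way. The 4 were the HIF target genes ADM, P4HA2 and ANKRD37 and the glucose transporter gene SLC2A1. Among the 12 measured HIF target genes 3 rose, and the median log2 change was 0.11. That median was 0.21 with a filter on low values, which leaves out BNIP3 and LOX, and 0.06 without SAH-BCL9B 3. Without PFKFB3 and PFKFB4, which encode regulators of glycolysis, it was 0.05 over 10 genes, no higher than that of the enzymes. The members called higher were 3 without SAH-BCL9B 3, and 2, ADM and P4HA2, without any other single array. Among the 17 glycolysis enzymes 0 passed limma's test, with 0 also at an unadjusted p under 0.05, where 21.4% of all genes lay, and the median change was 0.05. The median over all genes was 0.02. Counted over all members, there were 8 higher and 1 lower at an unadjusted p under 0.05, the lower one being PDK1. Of all genes, 12.2% were higher and 9.22% lower at that p, so the 9 of 36 members were close to the 21.4% of all genes. The groups did not overlap in 14 of the 36 members, 10 higher and 4 lower, against 28.3% of all genes. The difference between target genes and enzymes was not itself tested.

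**Figure D1:**
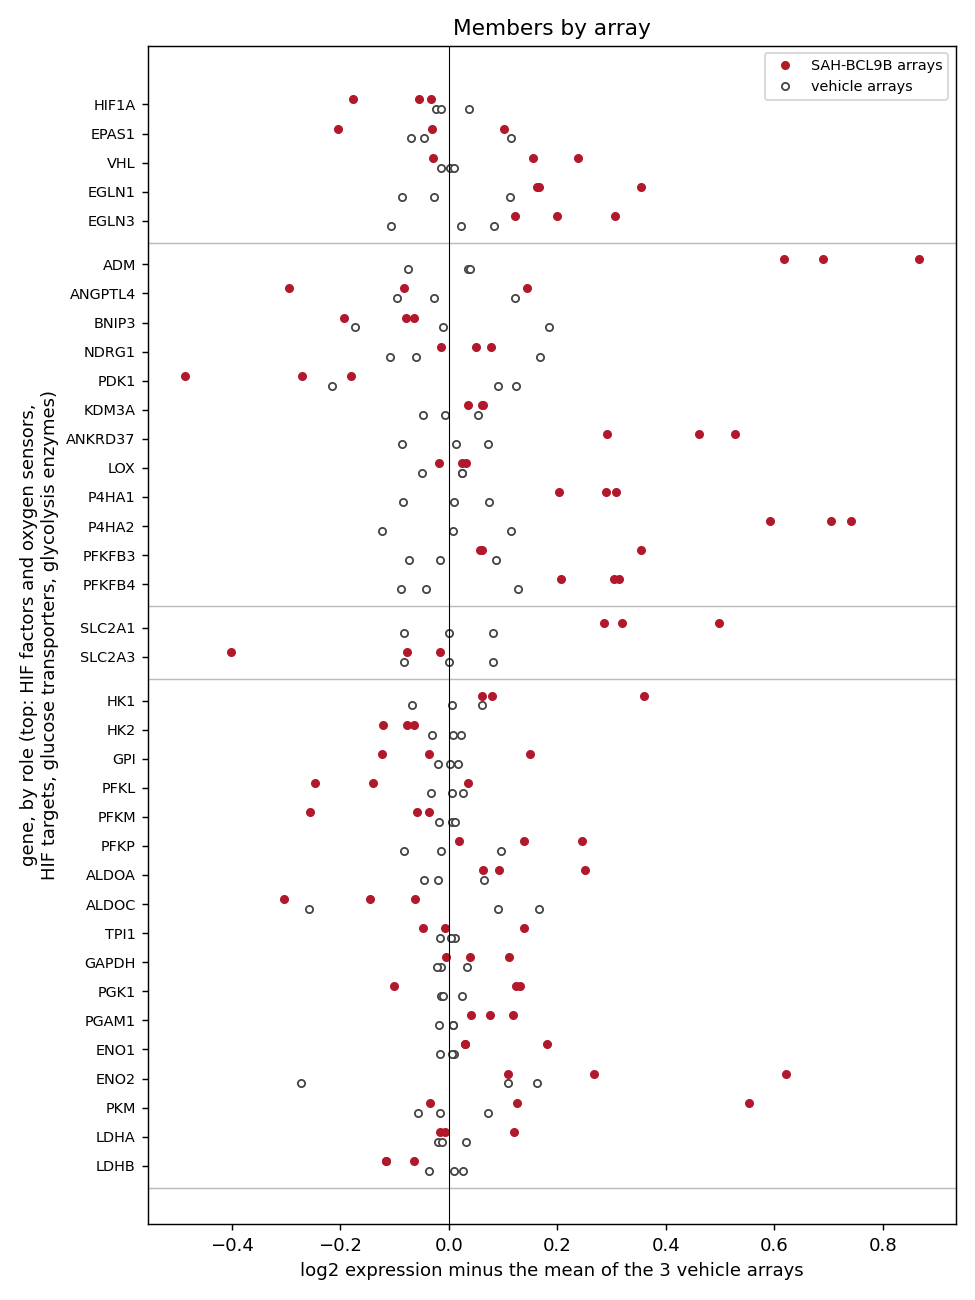
Log2 expression of the 36 measured members minus the mean of the 3 vehicle arrays, 1 row per gene, with filled points for SAH-BCL9B arrays above open points for vehicle arrays. The filled points of ADM, P4HA2, ANKRD37 and SLC2A1 lie to the right of their open points. In 12 of the 17 enzymes the 2 kinds of point overlap, a share near that of all genes, of which 28.3% did not overlap.

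ADM, which encodes the vessel-dilating peptide adrenomedullin, had the largest change of the measured members. Its log2 level was 11.39, 11.21 and 11.14 with SAH-BCL9B, against 10.45, 10.56 and 10.56 with vehicle. The lowest SAH-BCL9B array lay above the highest vehicle array. The means were 11.25 ± 0.13 with SAH-BCL9B and 10.52 ± 0.07 with vehicle (SD, n = 3 each). ADM rose by 0.73 ± 0.09 (SE) on the log2 scale, or 1.65-fold (95% interval of the log2 change 0.52 to 0.93, limma adjusted p = 0.00507). It has 1 single-gene probe set and passed in all 17 alternatives (adjusted p = 0.000114 to 0.0439).

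P4HA2 and P4HA1 encode catalytic subunits of the enzyme that hydroxylates prolines in collagen, which is separate from the HIF prolyl hydroxylases. P4HA2 had 12.07, 12.03 and 11.92 with SAH-BCL9B, against 11.20, 11.33 and 11.44 with vehicle, without overlap. It rose by 0.68 ± 0.09 (SE), or 1.60-fold (limma adjusted p = 0.0066). Its other 2 probe sets changed by -0.02 and -0.21, and neither passed. With the mean of the 3 the change was 0.15 and missed the threshold (adjusted p = 0.323, range over the alternatives 0.000119 to 0.323).

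P4HA1 had 12.16, 12.14 and 12.06 with SAH-BCL9B, against 11.77, 11.93 and 11.86 with vehicle. The groups were apart, and the change of 0.27 ± 0.08 (SE) did not pass (limma adjusted p = 0.0912). It passed with a filter on low values (0.037) and in a robust fit with a variance trend (0.0158), in a range of 0.0158 to 0.799 over the alternatives.

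ANKRD37, a small ankyrin-repeat gene often used as a HIF readout, had 10.31, 10.38 and 10.15 with SAH-BCL9B, against 9.77, 9.93 and 9.87 with vehicle. All SAH-BCL9B arrays lay above all vehicle arrays. It rose by 0.43 ± 0.09 (SE), or 1.34-fold (limma adjusted p = 0.0308), and its second probe set changed by 0.16 without passing. Of the 6 arrays, SAH-BCL9B 3 was the one whose omission kept the call of ANKRD37; omitting any of the other 5 gave an adjusted p of 0.0543 to 0.14. It missed the threshold in 11 of the 17 alternatives (range 0.00528 to 0.14).

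SLC2A1 encodes GLUT1, the glucose transporter of most proliferating cells, and SLC2A3 encodes the high-affinity transporter GLUT3. SLC2A1 had 10.55, 10.76 and 10.58 with SAH-BCL9B, against 10.18, 10.26 and 10.34 with vehicle, without overlap. It rose by 0.37 ± 0.09 (SE), or 1.29-fold, just inside the threshold (limma adjusted p = 0.0496). Its second probe set changed by 0.52, also with the groups apart. Neither passed when probe sets were tested singly. SLC2A1 missed the threshold when any 1 of the 6 arrays was left out (adjusted p = 0.0772 to 0.2) and in 13 of the 17 alternatives (range 0.00985 to 0.2), while the change stayed between 0.29 and 0.52. SLC2A3 had 7.54, 7.60 and 7.21 with SAH-BCL9B, against 7.53, 7.61 and 7.70 with vehicle, with overlap. Its change of -0.17 ± 0.11 did not pass (adjusted p = 0.487), and its other 2 probe sets changed by -0.17 and -0.16.

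The remaining 8 measured HIF target genes did not pass either. PFKFB4 and PFKFB3 encode the bifunctional enzymes that set the level of the main activator of phosphofructokinase. PFKFB4 had 9.27, 9.28 and 9.17 with SAH-BCL9B, against 8.88, 8.93 and 9.10 with vehicle, without overlap, and changed by 0.27 ± 0.09 (SE, limma adjusted p = 0.107). It passed with a filter on low values (0.047) and with array weights (0.0494), in a range of 0.047 to 0.354. PFKFB3 changed by 0.16 ± 0.10, with overlap. PDK1, a kinase that shuts off pyruvate dehydrogenase, had the lowest change of the measured members. Its level was 9.84, 9.53 and 9.75 with SAH-BCL9B, against 10.11, 10.14 and 9.80 with vehicle, and 1 SAH-BCL9B array lay above the lowest vehicle array. The change of -0.31 ± 0.12 (95% interval -0.59 to -0.03) did not pass (adjusted p = 0.185).

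KDM3A, which encodes a histone demethylase, changed by 0.05 and the stress-responsive gene NDRG1 by 0.04. ANGPTL4, an inhibitor of lipoprotein lipase, changed by -0.08. LOX, an oxidase that cross-links collagen, changed by 0.01 and the mitophagy receptor gene BNIP3 by -0.11. In all 5 the groups overlapped. BNIP3 had mean levels of 4.50 with SAH-BCL9B and 4.61 with vehicle, and LOX 4.51 and 4.50; both genes lay below the median of all values, 6.60, and their signal over background is unknown.

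**Figure D2:**
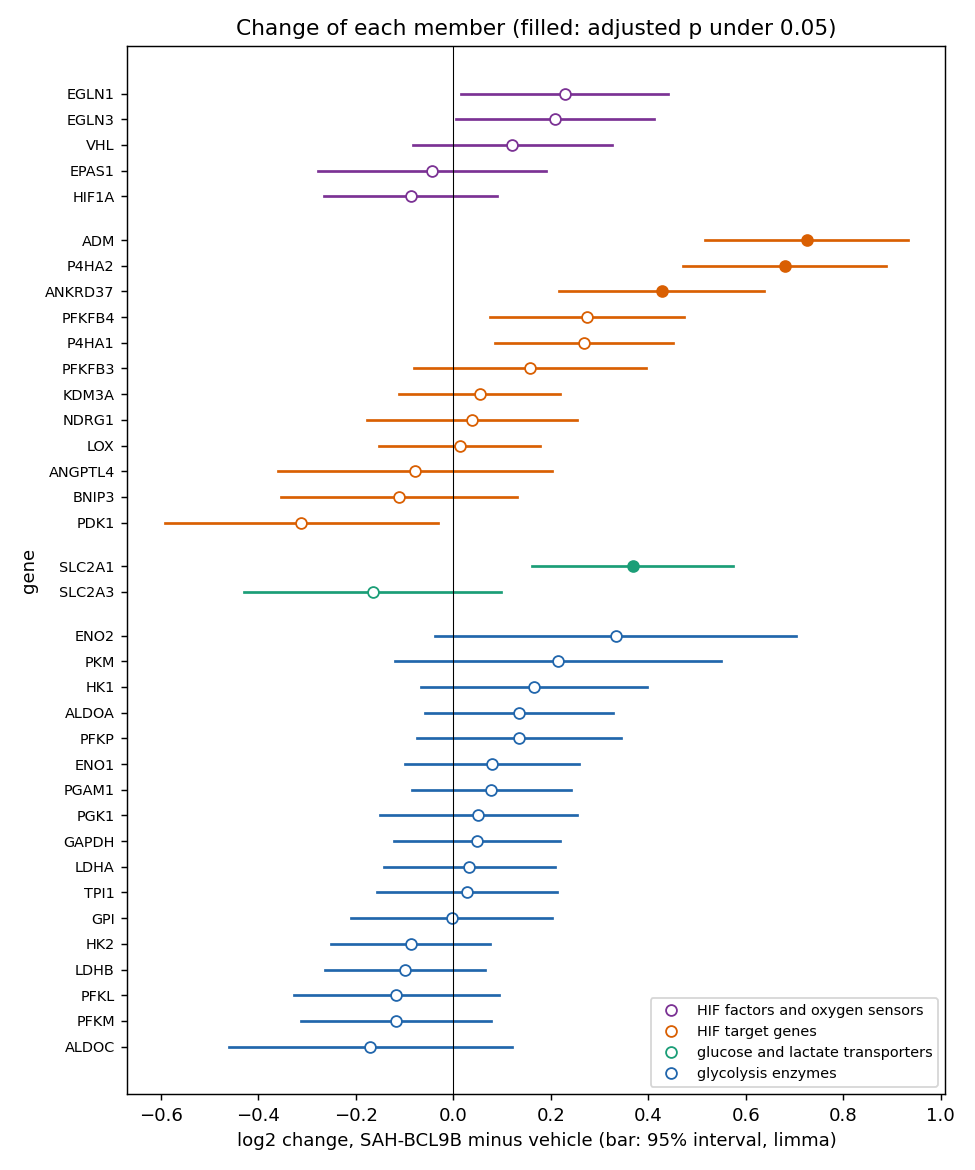
Log2 change of each measured member, SAH-BCL9B minus vehicle, with its 95% interval from limma, grouped by role and ordered by change within a role; filled points have an adjusted p under 0.05. The filled points are ADM (0.73), P4HA2 (0.68), ANKRD37 (0.43) and SLC2A1 (0.37), and the interval of each of the 17 enzymes includes 0.

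Of the 5 HIF factors and oxygen sensors, 0 passed limma's test, with 2 higher and 0 lower at an unadjusted p under 0.05 (of all genes 12.2% and 9.22%). HIF1A, the alpha subunit gene, had 13.33, 13.45 and 13.47 with SAH-BCL9B, against 13.48, 13.54 and 13.49 with vehicle. The SAH-BCL9B arrays lay narrowly below the vehicle arrays, and the change was -0.09 ± 0.08 (SE, 95% interval -0.26 to 0.09). EPAS1, which encodes the second alpha subunit, changed by -0.04 ± 0.10, and VHL by 0.12 ± 0.09, both with overlap. EGLN3, a prolyl hydroxylase gene that is itself a known HIF target, had 8.13, 8.23 and 8.05 with SAH-BCL9B, against 8.01, 7.95 and 7.82 with vehicle, without overlap. Its change of 0.21 ± 0.09 did not pass (adjusted p = 0.22).

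EGLN1 encodes the main HIF prolyl hydroxylase, and its 4 probe sets differed in size of change. The one that stood for the gene had 12.04, 11.85 and 11.85 with SAH-BCL9B, against 11.66, 11.80 and 11.60 with vehicle, without overlap, and changed by 0.23 ± 0.09 (SE, limma adjusted p = 0.2). When probe sets were tested singly, 2 others passed. The first had 9.54, 9.15 and 9.33 with SAH-BCL9B, against 8.25, 8.77 and 8.19 with vehicle, a change of 0.94 ± 0.17 (limma adjusted p = 0.0316). The second had 10.23, 10.05 and 10.03 with SAH-BCL9B, against 9.18, 9.59 and 9.24 with vehicle, a change of 0.77 ± 0.13 (limma adjusted p = 0.0224). In both the groups were apart, and the fourth probe set changed by 0.18. With the mean of the 4, EGLN1 changed by 0.53 and passed (adjusted p = 0.0198, range over the alternatives 0.0198 to 0.439).

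Over the 78 single-gene probe sets of the members, 4 passed, all higher, against 1.72% of all 41091 such probe sets called higher and 3.78% called either way. They were those 2 of EGLN1 and the ones that stand for ADM and P4HA2. Of the 25 members with more than 1 probe set, 5 had at least 1 with the opposite sign: ANGPTL4, P4HA2, PFKP, PGK1 and VHL.

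**Figure D3:**
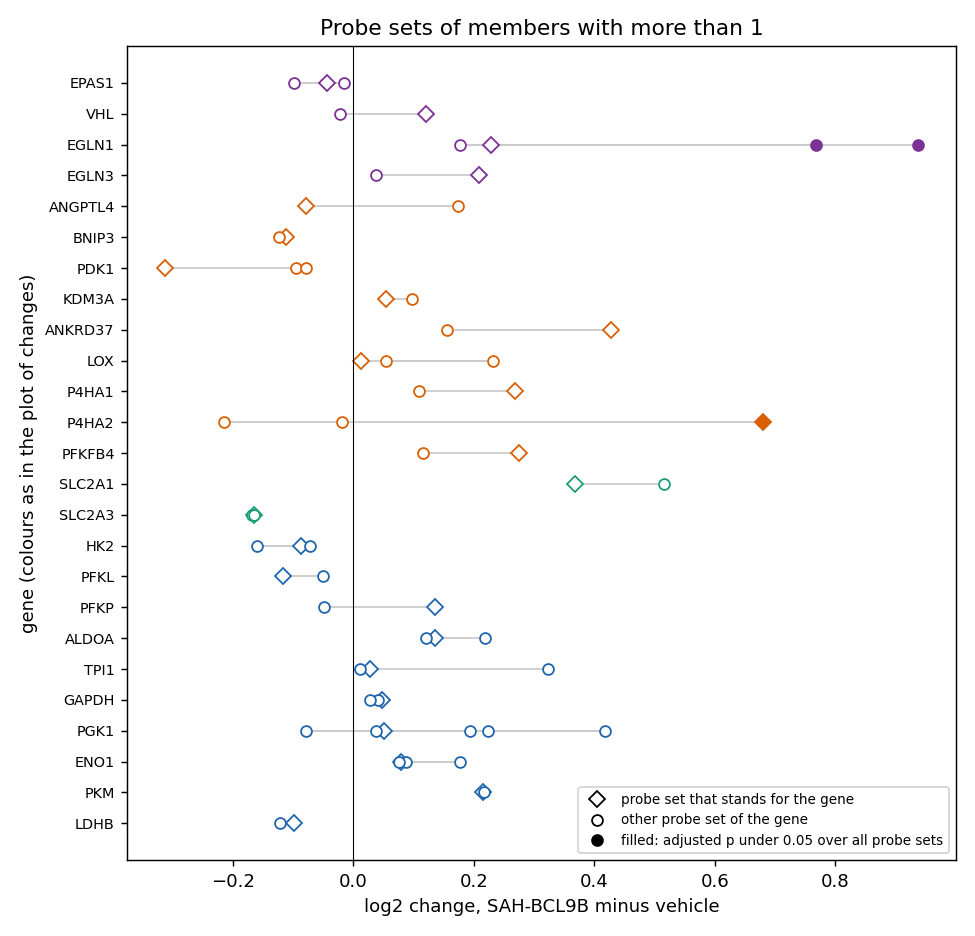
Log2 change, SAH-BCL9B minus vehicle, of every single-gene probe set of the 25 members with more than 1; diamonds mark the probe set that stands for the gene and filled marks passed an adjusted p of 0.05 over all probe sets. EGLN1 runs from 0.18 to 0.94 and P4HA2 from -0.21 to 0.68, while GAPDH runs from 0.03 to 0.05.

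The changes of the 17 glycolysis enzymes ran from -0.17 for ALDOC to 0.33 for ENO2, with 11 positive and 6 negative. Their 95% intervals lay between -0.46 and 0.70. HK2, the hexokinase gene known as a HIF target, had 11.20, 11.26 and 11.25 with SAH-BCL9B, against 11.35, 11.33 and 11.29 with vehicle. The SAH-BCL9B arrays lay narrowly below the vehicle arrays, with a change of -0.09 ± 0.07 (SE). HK1, the more widely expressed hexokinase gene, changed by 0.17 ± 0.10, and GPI, the isomerase gene of the next step, by -0.003 (95% interval -0.21 to 0.20). Phosphofructokinase catalyses a main control step of the pathway. Of its genes, PFKP changed by 0.14, PFKL by -0.12 and PFKM by -0.12; PFKM alone of these had its groups apart. The aldolase genes ALDOA and ALDOC changed by 0.14 and -0.17, and TPI1, the triosephosphate isomerase gene, by 0.03.

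GAPDH, the dehydrogenase gene often used as a loading reference, had 15.47, 15.54 and 15.42 with SAH-BCL9B, against 15.41, 15.41 and 15.46 with vehicle, a change of 0.05 (95% interval -0.12 to 0.22). The array's own control probe set for the 3' end of GAPDH had 15.35, 15.29 and 15.29 with SAH-BCL9B, against 15.29, 15.28 and 15.25 with vehicle. PGK1, the kinase gene of the first ATP-forming step, had 14.01, 13.78 and 14.01 with SAH-BCL9B, against 13.91, 13.87 and 13.87 with vehicle, with overlap. It changed by 0.05 ± 0.09 (SE), and its 6 probe sets ran from -0.08 to 0.42 with 0 past limma's threshold. The mutase gene PGAM1 and the enolase gene ENO1 changed by 0.08 each, with the SAH-BCL9B arrays narrowly above the vehicle arrays in both.

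LDHA encodes the lactate dehydrogenase subunit that favours lactate formation and is a known HIF target. It had 14.41, 14.54 and 14.40 with SAH-BCL9B, against 14.40, 14.40 and 14.45 with vehicle, with overlap, a change of 0.03 (95% interval -0.14 to 0.21). LDHB, the subunit of the heart isoform, had 14.83, 14.83 and 14.88 with SAH-BCL9B, against 14.96, 14.98 and 14.91 with vehicle. It changed by -0.10 ± 0.07 (SE) with its groups narrowly apart (limma adjusted p = 0.506). The neuronal enolase gene ENO2 and the pyruvate kinase gene PKM had the highest changes of the enzymes, 0.33 ± 0.16 and 0.22 ± 0.14 (limma adjusted p = 0.285 and 0.471). In both SAH-BCL9B 2 was the highest array, and without it the changes were 0.19 and 0.05.

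SAH-BCL9B 2 was the highest of the 6 arrays in 11 of the 17 enzymes, and in 33.5% of all genes. It had the smallest difference between the 3' and 5' control probe sets of ACTB, 0.74, where the other arrays had 1.20 to 1.38. Without it the median change of the enzymes was 0.02. Its part in the other results was not tested beyond the values given without it. As a deviation from each gene's mean over the arrays, the median of the enzymes was -0.02, 0.10 and -0.03 in the SAH-BCL9B arrays, against -0.04, -0.03 and -0.002 in the vehicle arrays, so the groups overlapped. For the HIF target genes it was 0.03, 0.11 and 0.05 in the SAH-BCL9B arrays, against -0.14, -0.06 and -0.07 in the vehicle arrays, without overlap. How often medians of 12 genes lie apart in this way was not counted, so this lack of overlap has no background. Vehicle 1 was the lowest array in 7 of the 12 measured target genes and in 18.3% of all genes.

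**Figure D4:**
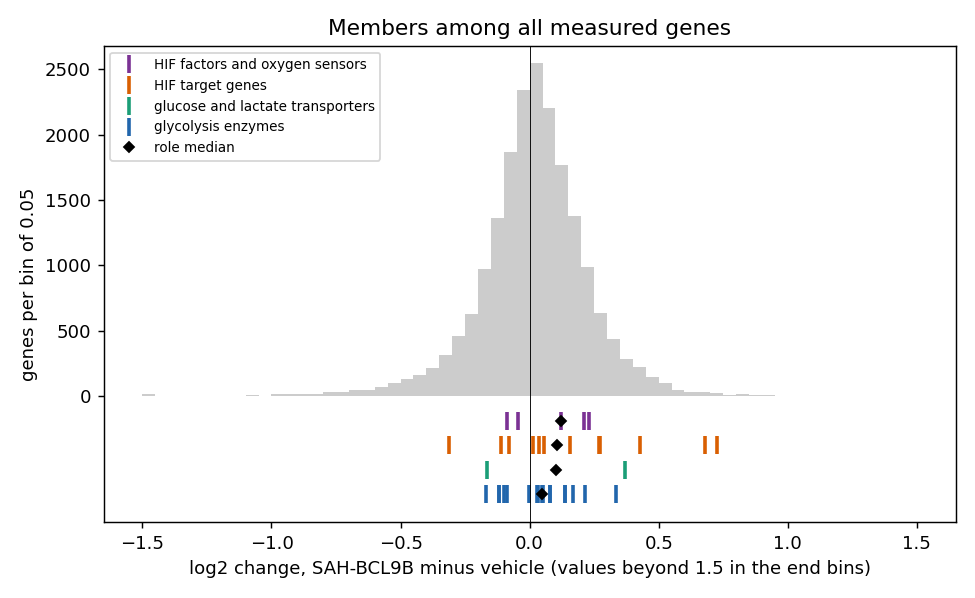
Histogram of the log2 change of all 19775 genes, SAH-BCL9B minus vehicle, in bins of 0.05, with the members of each role as ticks under it and diamonds at the role medians. The role medians are 0.12 for factors and sensors, 0.11 for target genes, 0.10 for the 2 transporters and 0.05 for enzymes, against 0.02 for all genes. Without PFKFB3 and PFKFB4 the median of the target genes is 0.05.

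Genes that serve the same step were compared within each array in 11 pairs, by the exact two-sided permutation test. With 3 arrays against 3 its smallest p is 0.1, so no pair could pass, and the lowest adjusted p was 0.275. In 4 pairs the within-array difference did not overlap between the groups; of single genes, 28.3% did not overlap. The change of SLC2A1 exceeded that of SLC2A3 by 0.53 on the log2 scale, that of P4HA2 exceeded P4HA1 by 0.41 and that of PFKP exceeded PFKL by 0.25. HK2 minus HK1 was -0.25. Among the pairs with overlap, LDHA minus LDHB was 0.13, ENO2 minus ENO1 0.25, ALDOC minus ALDOA -0.31 and EGLN3 minus EGLN1 -0.02. These differences depended on the probe sets. With the probe sets of each gene averaged, 5 pairs were apart, P4HA2 minus P4HA1 turned to -0.04 with overlap and PFKP minus PFKL was 0.13 with overlap. EGLN3 minus EGLN1 was then -0.40 with the groups apart, and it was 0.02 after a second quantile normalization.

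Of 29 measured further HIF target genes, 2 rose and 2 fell in limma's test (of all genes, 3.49% and 3.43%). Their median change was 0.02. BHLHE40, a transcriptional repressor of the circadian and hypoxia responses, had 11.12, 10.95 and 10.84 with SAH-BCL9B, against 9.95, 10.12 and 9.95 with vehicle. It rose by 0.96 ± 0.10 (SE, limma adjusted p = 0.00268). ERO1A, an oxidase of disulphide bond formation, rose by 0.50 ± 0.08 (adjusted p = 0.0124). The call of ERO1A was lost by omitting vehicle 1 (0.0577), SAH-BCL9B 1 (0.0542) or SAH-BCL9B 3 (0.0532; range over the alternatives 0.000449 to 0.169), and with the mean of its probe sets the change was 0.22.

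The lipoprotein receptor gene VLDLR had 8.23, 7.86 and 7.92 with SAH-BCL9B, against 9.48, 9.50 and 9.37 with vehicle, and fell by 1.44 ± 0.11 (SE, limma adjusted p = 0.000963). DDIT4, which encodes an inhibitor of mTOR signalling, had 12.96, 12.94 and 12.84 with SAH-BCL9B, against 13.88, 13.95 and 14.07 with vehicle. It fell by 1.05 ± 0.08 (SE, limma adjusted p = 0.00103). Both are known to respond to stress signals other than hypoxia as well. What moved these 2 genes, or the target genes that rose, was not tested. In these 2 genes every SAH-BCL9B array lay below every vehicle array. Among the same further targets, 1 probe set of CITED2 rose by 0.70 when probe sets were tested singly (limma adjusted p = 0.00794). The probe set that stood for CITED2 changed by 0.35 and did not pass.

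Of 15 measured further components of the HIF pathway, 3 were higher and 1 lower at an unadjusted p under 0.05 (of all genes, 12.2% and 9.22%). In limma's test 2 rose and 0 fell (of all genes, 3.49% and 3.43%). Both encode subunits of the ubiquitin ligase that VHL directs, and both serve other ligases too. RBX1, the ring subunit, had 12.62, 12.50 and 12.48 with SAH-BCL9B, against 12.15, 12.21 and 12.13 with vehicle, and rose by 0.37 ± 0.08 (SE, limma adjusted p = 0.0289). ELOC, the elongin C subunit, had 13.07, 13.09 and 13.13 with SAH-BCL9B, against 12.82, 12.77 and 12.77 with vehicle, and rose by 0.31 ± 0.07 (SE, limma adjusted p = 0.0404). The partner subunit genes CUL2 and ELOB changed by 0.14 and 0.02, and HIF1AN, the asparagine hydroxylase gene of the pathway, by 0.22; none of these 3 passed, and they were chosen for mention after their values were seen. RBX1 missed the threshold when any array but SAH-BCL9B 2 was left out (0.0678 to 0.131) and ELOC when any of the 6 was (0.0544 to 0.14). The second probe set of ELOC changed by 0.12.

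Of 14 measured further isoenzymes and side-branch genes of glycolysis, 2 were higher and 2 lower at an unadjusted p under 0.05 (of all genes, 12.2% and 9.22%). In limma's test 2 rose and 0 fell (of all genes, 3.49% and 3.43%). BPGM, whose enzyme bypasses the step of PGK1, had 8.74, 8.41 and 8.83 with SAH-BCL9B, against 7.89, 8.20 and 7.61 with vehicle, and rose by 0.76 ± 0.17 (SE, limma adjusted p = 0.0344). TIGAR, a phosphatase gene that lowers the activator of phosphofructokinase, had 11.11, 10.88 and 11.08 with SAH-BCL9B, against 10.58, 10.70 and 10.65 with vehicle, and rose by 0.38 ± 0.09 (SE, limma adjusted p = 0.0432). In both the groups were apart. The call of BPGM was kept by omitting vehicle 2 or SAH-BCL9B 2 and lost by omitting any of the other 4 arrays (adjusted p = 0.0854 to 0.125). TIGAR missed the threshold when any array but SAH-BCL9B 2 was left out (0.1 to 0.178).

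Of 12 measured genes of pyruvate entry into mitochondria, 2 were higher and 1 lower at an unadjusted p under 0.05 (of all genes, 12.2% and 9.22%). In limma's test 1 rose and 0 fell (of all genes, 3.49% and 3.43%). It was MPC1, a subunit gene of the mitochondrial pyruvate carrier. MPC1 had 11.35, 11.25 and 11.29 with SAH-BCL9B, against 10.56, 10.74 and 10.62 with vehicle. It rose by 0.65 ± 0.08 (SE, limma adjusted p = 0.0047). The second probe set of MPC1 changed by 0.21 and did not pass when probe sets were tested singly. The partner gene MPC2 changed by 0.25 and did not pass (limma adjusted p = 0.0998). The second probe set of MPC2 changed by -0.35, in the opposite direction, with the groups apart, and did not pass either. In the same list, 1 probe set of DLD fell by 0.46 when probe sets were tested singly (limma adjusted p = 0.0254). The probe set that stood for DLD changed by -0.10 and did not pass. Of 6 measured genes of the pentose phosphate pathway, 0 passed limma's test (6.93% of all genes did). At an unadjusted p under 0.05 there were 0 (21.4% of all genes). Of the 3 probe sets of TKT, with changes of 0.001 to 0.49, 1 passed as higher when tested singly. Of 6 genes of gluconeogenesis, 0 were higher and 2 lower at an unadjusted p under 0.05 (of all genes, 12.2% and 9.22%). In limma's test 0 rose and 1 fell (of all genes, 3.49% and 3.43%). It was PCK2, the mitochondrial carboxykinase gene, which had 10.07, 10.14 and 9.91 with SAH-BCL9B, against 11.84, 11.74 and 11.78 with vehicle, and it fell by 1.74 ± 0.09 (SE, limma adjusted p = 0.000158). BHLHE40, MPC1, VLDLR, DDIT4 and PCK2 passed in all 17 alternatives.

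**Figure D5:**
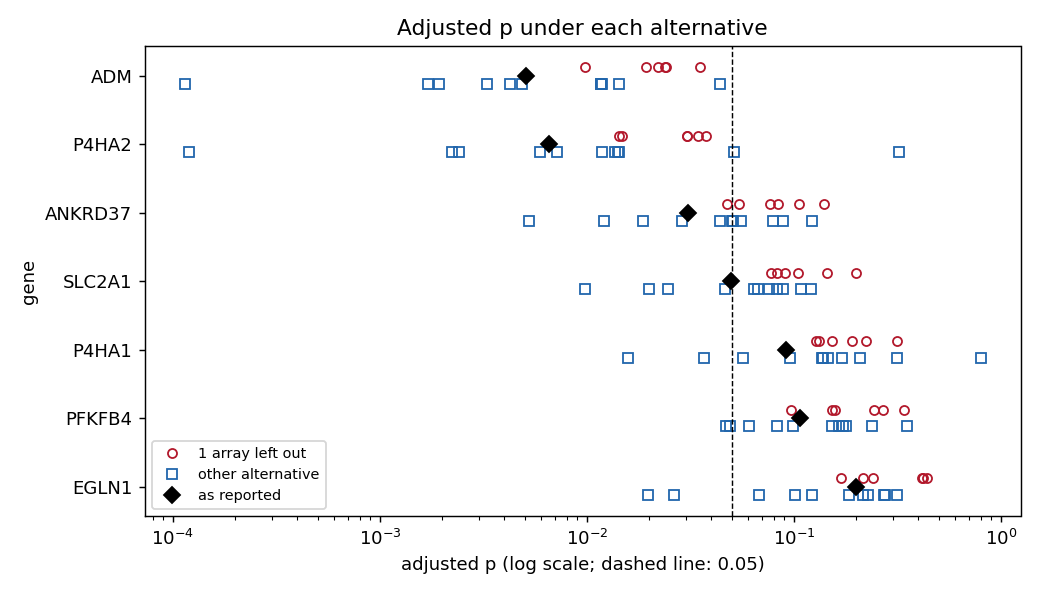
Adjusted p of 7 members as reported (diamonds), with 1 array left out (circles) and under the other alternatives (squares), on a log axis with the threshold of 0.05 dashed. The points of ADM lie between 0.000114 and 0.0439, all left of the line, those of P4HA2 cross it in 2 alternatives, and those of ANKRD37 and SLC2A1 in 11 and 13.

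All 10 colon epithelium markers looked at lay above the median of all values, below which 7514 of all 19775 genes lay. Among these markers KRT8 rose by 0.50 and VIL1 fell by 0.86 (limma adjusted p = 0.0113 and 0.00303). The 4 probe sets of VIL1 changed by -0.86 to -0.02, and 2 passed as lower when tested singly. The part of KRT8 and VIL1 in the members' changes was not tested. Of the 13 measured markers of fibroblasts, blood cells and endothelium, 10 lay below that median, while COL1A1, HBB and PECAM1 lay above it. Of the 13, 0 passed limma's test, with 0 at an unadjusted p under 0.05. Array medians were 6.58 to 6.62. The number of arrays limits the precision of each change.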

How the data were processed

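Expression was measured on 6 Affymetrix arrays of DLD1 cells, 3 with SAH-BCL9B and 3 with vehicle, grouped by the labels. The deposited values are log2 expression per probe set for 54675 probe sets; RMA and the affy package are named in the submitters' processing notes, without version or options. RMA makes the distributions of arrays alike, so a shift common to most genes would be hidden, and scanner intensities were not used. GEO's platform annotation named 1 gene for 41091 probe sets and several for 1801, and the Entrez ID of 41037 was found in RefSeq. Each of 19775 genes was read from its single-gene probe set of highest mean, with no filter on low values.

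The change of SAH-BCL9B over vehicle was fitted by limma (version 3.58.1, R 4.3.3) through lmFit and eBayes without covariates; the prior had 3.94 degrees of freedom. P-values were adjusted over all genes by Benjamini-Hochberg, at a threshold of 0.05. An error of a change is limma's SE, an error of a mean the SD over 3 arrays. The fit was tested on simulated data. The genes named are all members and, of each other list, those past the threshold, with exceptions stated beside them. The members and lists were chosen with earlier results of these data known. The 17 alternatives are a replicate block, a filter on low values, other ways to use several probe sets, other scalings and variance models, array weights, an ACTB covariate, and arrays left out. Motifs were searched in RefSeq promoter windows with Python 3.11.15.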

Additional observations from a re-analysis of the deposited data

How the results depend on the processing

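With each gene read as 1 value, or from the probe set that stands for it where probe sets were tested singly, the direction of all 4 called members was kept in the 17 alternatives. ADM passed in all, and 0 enzymes and 0 members on the lower side passed in any. With 1 array, or both vehicle 3 and SAH-BCL9B 2, left out, 2 to 3 members were higher (4 as reported), 2 to 8 genes of the other lists (7 as reported), 107 to 699 of all genes (691) and 209 to 727 lower (679), and the median of HIF target genes was 0.062 to 0.146. The number of members called higher was 2 with the mean of all probe sets and with the ACTB difference as covariate. With the replicate number as a block, 1 member (ADM) was higher, 2 genes of the other lists, and 101 higher and 195 lower of all genes; the adjusted p was 0.0512 for P4HA2, 0.0886 for ANKRD37 and 0.121 for SLC2A1. Deviations of same-numbered arrays correlated at 0.24, -0.20 and -0.32. With 3 arrays per group these values cannot decide whether the numbers pair the samples. Of all genes, 1260 were higher with a filter on low values, 1381 higher and 1075 lower in a robust fit with a variance trend, and 1114 higher and 1058 lower with array weights. Of the other lists, lower genes numbered 8 with the filter, 6 with a second quantile normalization, 7 with the trend and 8 with weights (3 as reported). The median of HIF target genes was 0.21 with the filter, which leaves out BNIP3 and LOX. Read in that way, 8 of the 36 members changed sign, none of them called; the 5 members with single probe sets of opposite sign, the called P4HA2 among them, are a separate count. ANGPTL4 was 0.0475 with the mean of probe sets, and VHL -0.0226 with the probe set of largest interquartile range. With array weights LOX was -0.00416 and TPI1 -0.0075. With the ACTB covariate EPAS1 was 0.0458, TPI1 -0.0313 and LDHA -0.0175. With the same arrays left out, the change ran over -0.117 to 0.0355 for EPAS1, -0.189 to 0.0302 for ANGPTL4, -0.0161 to 0.122 for NDRG1, -0.0207 to 0.028 for LOX, -0.0792 to 0.0566 for GPI, -0.0273 to 0.0663 for TPI1 and -0.011 to 0.0566 for LDHA. Apart from the filter and the left-out arrays, the cause of these shifts was not tested. In data simulated with 3 arrays per group, 41 of 100 genes with a log2 change of 0.5 and 82 of 100 with a change of 1 were recovered. There were 9 false calls. Only these genes among 19775 were changed, a smaller share than the 6.93% called in the data. The noise was drawn independently for each gene, without array effects, so these figures do not give the power of this study.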
